A study of Mus musculus with 4 samples.

Results

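The genes described here encode the proteins of the cytosolic ribosome. They were chosen by symbol among the protein-coding genes of GENCODE M21 on the mm10 mouse genome, as *Rpl* or *Rps* with a number and at most one further letter (a, l or x), together with *Rpsa*, *Rplp0*, *Rplp1* and *Rplp2*. The rule found 80 of 21938 nuclear protein-coding genes, 49 named for the large and 31 for the small ribosomal subunit. The rule uses no measured value, but the family was picked for study with earlier results of these data known. Chromatin accessibility was profiled by ATAC-seq, in which the Tn5 transposase cuts open DNA and inserts sequencing adapters, in mouse hearts at embryonic day 9.5 (E9.5). The hearts were wild type (WT) or constitutively null for *Smyd1*, a histone methyltransferase of striated muscle (*Smyd1-KO*). No driver or further allele was named for either group, and embryos of both sexes were used. Each genotype had 2 libraries, each from a pool of 4 whole hearts and 40000 viable cells, so that all cell types of the heart could contribute.

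Ribosomal proteins are made in nearly equal amounts in every cell, and their genes are among the most strongly transcribed of housekeeping genes. Their promoters are typically short, rich in CpG and without a TATA box. Transcription usually starts at a C within a run of pyrimidines, and the resulting terminal oligopyrimidine (TOP) tract lets the mTOR pathway control translation of these mRNAs as a group. Several of the genes carry small nucleolar RNAs (snoRNAs), which guide modification of ribosomal RNA, in their introns. The growing embryonic heart depends on this supply of ribosomes.

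The deposited data were 2 lists of differential peaks, 25745 higher in *Smyd1-KO* hearts (called gained here) and 106 higher in WT hearts. A listed peak had at least 2-fold more tags in one genotype than in the other. Every peak was 149 bp wide. Its score is the authors' tag value for the combined libraries of the genotype in which it was higher, given as tags below. It is not a plain count. Of the 25745 gained peaks 12889 had a score that was not whole, and all scores were exact multiples of 0.5. In the WT list 93 of 106 scores were not multiples of 0.5. How the authors scaled or averaged the values is not given in the sources used here, so scores were compared only within the gained list. The libraries were combined before the peaks were called, which leaves the values without replicate errors, makes a test between genotypes impossible and hides the depth of each library. Shares carry exact Clopper-Pearson 95% intervals, which cover counting error only. A gene without a gained peak may still have had open chromatin in both genotypes, since peaks that differed less were not analysed here. More cells with an open promoter and more cuts per cell cannot be told apart in pooled hearts. *Smyd1* itself had no gained peak within 3 kb of a transcription start site (TSS), and the nearest, with 668 tags, was 9201 bp away. The lists do not show transcript levels, so they do not check the knockout itself.

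Most of the family stood beside chromatin that was more accessible in the mutant. Of the 80 ribosomal protein genes 57, or 71.25% (95% interval 60.05 to 80.8%), had a gained peak at most 3 kb from a TSS. The same held for 51.2% of all protein-coding genes. Among genes named for the large subunit it held for 33 of 49 (67.3%, 52.5 to 80.1%), and among those for the small subunit for 24 of 31 (77.4%, 58.9 to 90.4%), with intervals that overlap widely. Within 1 kb the count was 56 of 80, beside 48.1% of all protein-coding genes. A gained peak covered a TSS of 35 members (43.75%), beside 27.8% of all protein-coding genes. The other direction was not seen. None of the 80 genes had a WT-enriched peak within 3 kb or within 10 kb of a TSS, so that the exact 95% interval reaches 4.51%, and 0.0228% of all protein-coding genes had one within 3 kb.

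The comparison with all protein-coding genes changed with the kind of promoter. The ratio of observed to expected CpG dinucleotides, taken over 250 bases to either side of the reference TSS, had a median of 0.882 in the family and 0.613 in all protein-coding genes. It was at least 0.6 in 78 of the 80 members, and in 51.0% of all protein-coding genes. Of those 78 members, 56 or 71.8% had a gained peak (60.5 to 81.4%), and of all 11194 protein-coding genes with such a ratio 76.9% had one. The interval of the family holds that value. The limit of 0.6 was chosen after the data had been seen. The 2 members below it were *Rpl27*, with a ratio of 0.572 and a gained peak, and *Rpl3l*, with 0.0789 and none.

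The highest scores belonged to members of both subunits. *Rpl37*, which encodes a zinc-binding protein of the large subunit, led with 1197 tags. *Rpl13a*, whose protein also has a role in silencing inflammatory mRNAs outside the ribosome, followed with 1189.5 tags. *Rps21*, for a small-subunit protein, had 1153 tags, and *Rpl15*, for a large-subunit protein, had 1037 tags. These 4 genes, 7.02% of the 57 with a peak, reached 1000 tags, as did 7.66% of the 11236 protein-coding genes with a peak. In each of the 4 the peak lay at the promoter. The sequences show how it sits there. Each covers 300 bases of mm10, read 5′ to 3′ on the strand of the gene, and ends 15 bases into the transcript. The capitals mark the bases of the gained peak. The windows are chr15:5116360-5116659, plus strand for *Rpl37*, chr7:45128747-45129046, minus strand for *Rpl13a*, chr2:180257092-180257391, plus strand for *Rps21* and chr14:18271053-18271352, minus strand for *Rpl15*.
Rpl37: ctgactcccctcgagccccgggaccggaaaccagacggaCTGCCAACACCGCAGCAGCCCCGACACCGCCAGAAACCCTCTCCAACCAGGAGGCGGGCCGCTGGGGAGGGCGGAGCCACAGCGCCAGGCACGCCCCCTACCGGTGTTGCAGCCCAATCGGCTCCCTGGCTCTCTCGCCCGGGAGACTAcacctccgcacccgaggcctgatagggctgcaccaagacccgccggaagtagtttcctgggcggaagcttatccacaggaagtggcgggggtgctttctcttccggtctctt
Rpl13a: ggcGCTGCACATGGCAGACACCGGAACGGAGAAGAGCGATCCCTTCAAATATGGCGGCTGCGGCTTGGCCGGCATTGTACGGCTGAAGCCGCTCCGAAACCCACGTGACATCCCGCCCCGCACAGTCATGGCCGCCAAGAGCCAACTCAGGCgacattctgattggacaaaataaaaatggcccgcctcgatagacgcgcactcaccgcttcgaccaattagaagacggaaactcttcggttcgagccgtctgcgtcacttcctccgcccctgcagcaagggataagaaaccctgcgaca
Rps21: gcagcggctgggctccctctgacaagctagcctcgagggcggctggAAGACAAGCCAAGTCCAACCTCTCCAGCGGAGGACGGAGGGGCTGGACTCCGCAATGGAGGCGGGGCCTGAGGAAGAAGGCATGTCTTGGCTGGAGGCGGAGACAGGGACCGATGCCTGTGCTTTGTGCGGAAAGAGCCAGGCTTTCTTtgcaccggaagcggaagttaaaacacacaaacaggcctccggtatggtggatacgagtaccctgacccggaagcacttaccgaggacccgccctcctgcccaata
Rpl15: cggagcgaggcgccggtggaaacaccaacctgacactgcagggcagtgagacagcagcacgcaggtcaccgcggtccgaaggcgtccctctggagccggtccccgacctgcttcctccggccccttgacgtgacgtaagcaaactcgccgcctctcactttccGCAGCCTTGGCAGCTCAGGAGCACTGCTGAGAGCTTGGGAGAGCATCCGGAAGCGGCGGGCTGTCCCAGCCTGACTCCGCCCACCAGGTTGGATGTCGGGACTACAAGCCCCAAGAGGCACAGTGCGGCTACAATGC

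In *Rpl37*, *Rpl13a* and *Rps21* the whole peak is upstream of the start, with its centre at -172, -208 and -165 bp, and the bases next to the start lie outside the peak. In *Rpl15* the peak runs over the start, with its centre at -48 bp, and 137 of its 149 bases fall in the window. That peak also covers a TSS of *Nkiras1*, which is transcribed the other way from a start 69 bp away, so its tags cannot be given to either gene alone.

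Among the next in order were *Rpl27* with 854.5 tags, *Rps29* with 820 and *Rpl18* with 810.5. *Rplp0*, which anchors the ribosomal stalk that binds elongation factors, had 736 tags. The peak of *Rpl18* covers a TSS of the neighbouring *Sphk2*, a sphingosine kinase gene, and lay 121 bp from the nearest TSS of *Rpl18*. The other stalk proteins, *Rplp1* and *Rplp2*, had 444 and 442.5 tags. A gained peak was thus near each of the 3 stalk genes, beside 51.2% of all and 76.9% of CpG-rich protein-coding genes, and that of *Rplp1* is lost when peaks with over 10% repeated words are left out.

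The lowest strongest scores were 191 tags at *Rpl3*, 199 at *Rpl39*, 235 at *Rpl23*, 238.5 at *Rpl38* and 240.5 at *Rpl32*. *Rpl3* encodes a protein close to the peptidyl transferase centre, and *Rpl39* a very short protein that lines the exit tunnel. *Rpl38* is known for its part in the translation of *Hox* mRNAs. The peak of *Rpl3* was 509 bp from the nearest annotated TSS of the gene and covered a TSS of *Syngr1*. Its centre was at -7879 bp from the reference TSS of *Rpl3*, and with that TSS alone *Rpl3* would not be counted. The peaks of the other 4 genes covered a TSS of their own gene. Even these scores were not low within the list. No member with a peak had its strongest score below the median of all listed gained peaks, 180.5 tags. Of the 11236 protein-coding genes with a peak, 1273 had it below (11.3%). *Rpl4* passed only through a peak of 508 tags nearer to a TSS of *Snapc5*, since its own promoter peak had 115 tags. That median is over single peaks at any distance from a gene, whereas a strongest score is the highest near a gene. A peak at or above that median was near 57 members, and near 45.4% of all protein-coding genes. CpG-rich genes were not counted apart here.

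**Figure D1:**
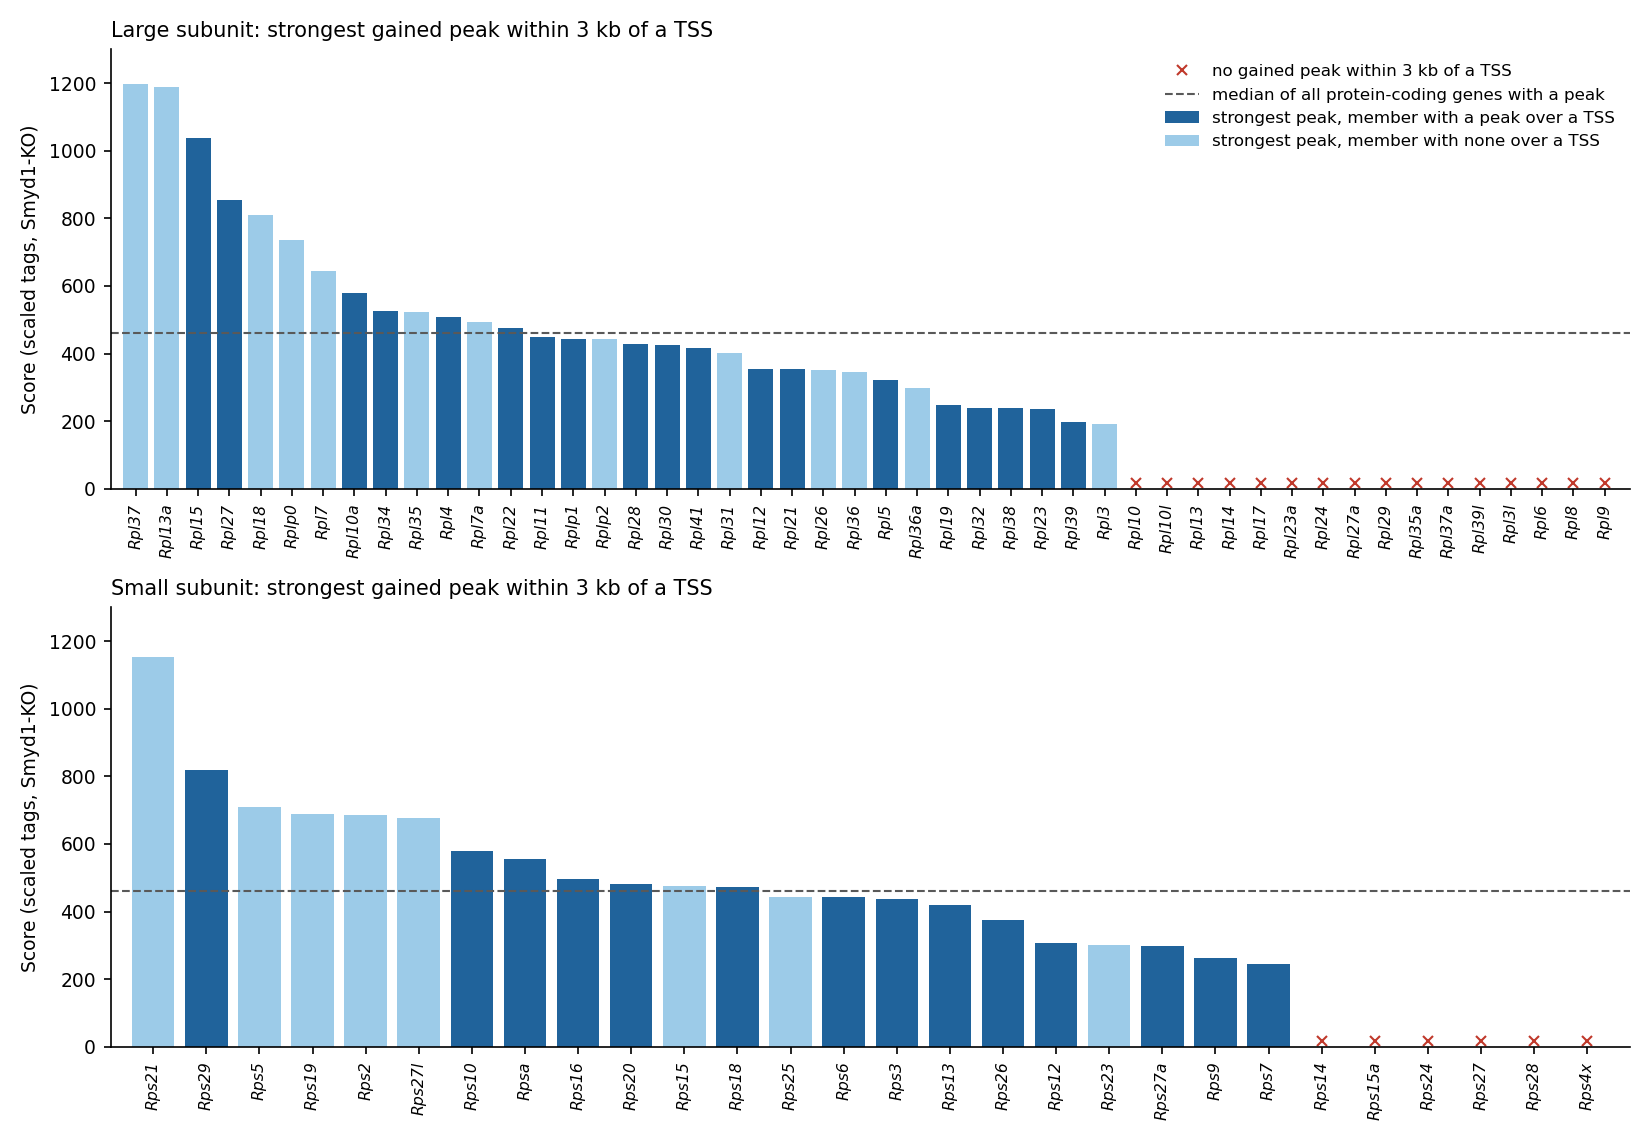
Strongest gained peak within 3 kb of a TSS for 76 of the 80 ribosomal protein genes, in scaled *Smyd1-KO* tags, by subunit. Bars are single pooled values with no error. Dark bars are members with a gained peak over a TSS and light bars those without one. Crosses mark 22 of the 23 members with no gained peak within 3 kb, and the dashed line is the median of all protein-coding genes with a peak, 460.5 tags. Scores run from 191 to 1197 tags without a gap between the subunits.

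The score gives the signal in the mutant alone, and the size of the gain over WT is not in the lists. The median strongest score was 450.5 tags over the 57 members (quartiles 350.5 and 643.5), and 460.5 tags over the 11236 protein-coding genes with a peak (quartiles 292 and 693). It was 442.5 tags in 33 large-subunit and 473.75 tags in 24 small-subunit genes. Against the quartiles of all protein-coding genes with a peak, 8 members lay below the lower one, 22 between it and the median, 16 between the median and the upper one, and 11 above it. Among all protein-coding genes with a CpG ratio of at least 0.6 and a peak, the median was 504.75 tags with quartiles 343.5 and 734. The lower quartile of the family was close to that of CpG-rich genes, and its median and upper quartile were lower.

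**Figure D2:**
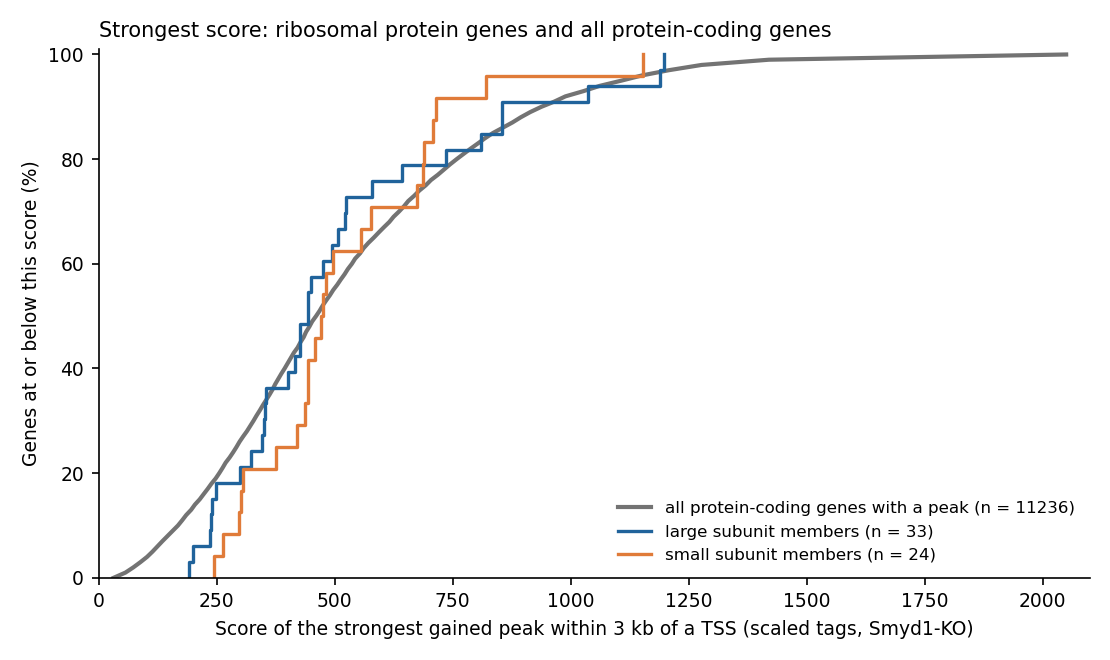
Cumulative share of genes, in percent, against the score of the strongest gained peak within 3 kb of a TSS, in scaled *Smyd1-KO* tags. The blue steps are the 33 large-subunit and the orange steps the 24 small-subunit members with a peak, and the grey line gives percentiles of the 11236 protein-coding genes with a peak. The steps start at 191 and 244 tags and have their medians at 442.5 and 473.75 tags, to either side of the grey line's 460.5 tags.

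The peaks sat close to the starts. There were 67 pairs of a member and a gained peak within 3 kb, made of 66 different peaks. Of the pairs, 36 had the peak over a TSS of the member, 17 had it at most 100 bp away, 4 beyond that and up to 500 bp, 1 up to 1000 bp and 9 up to 3000 bp. Measured from 1 reference TSS per gene, the strongest peak was centred within 500 bp in 52 of the 57 members (91.2%) and in 75.6% of the protein-coding genes with a peak. In those 52 it was upstream of the start in 31 and downstream in 21, with a median position of -34 bp. For all protein-coding genes the median was -29 bp, and 61.1% were upstream. Peaks were admitted by any TSS of a gene, and the members are short genes. Among genes with a peak, the median length was 3368 bp in the family and 25425 bp in all protein-coding genes. The part of gene length in these shares was not tested. The centre of the strongest peak was upstream of the reference transcript in 34 of 57 members, in its exon 1 in 21 and downstream of its end in 2.

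**Figure D3:**
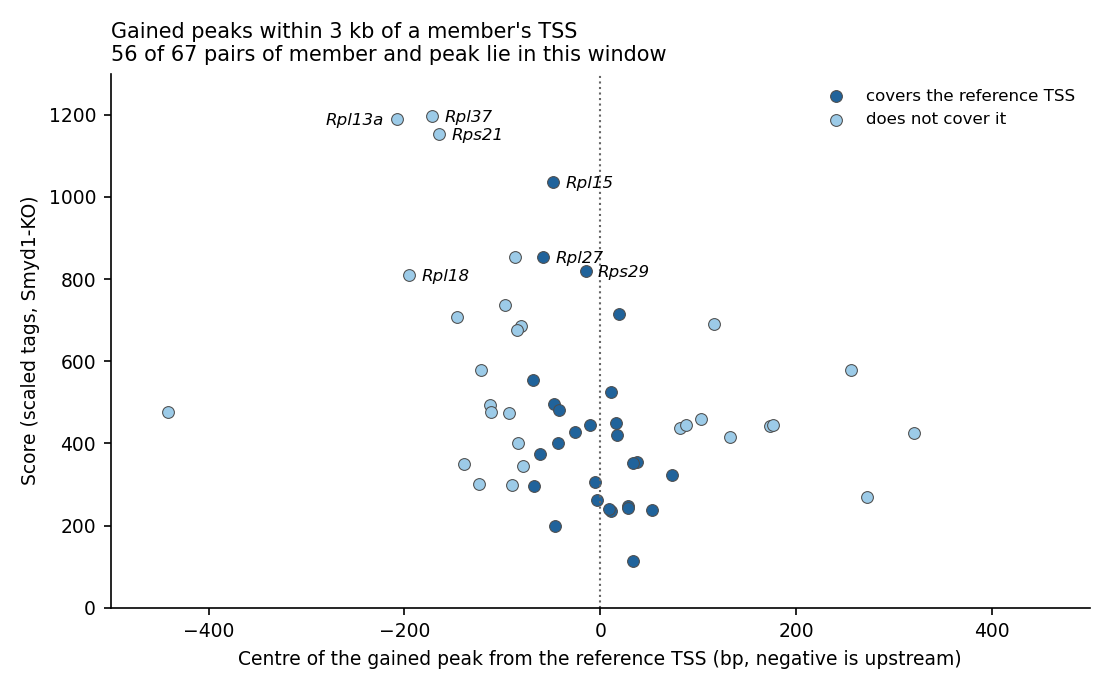
Score of each gained peak, in scaled *Smyd1-KO* tags, against the position of its centre from the reference TSS of the ribosomal protein gene, in bp, with upstream negative. Points are 56 of the 67 pairs of a member and a peak within 3 kb, and the other 11 have their centre more than 500 bp from the reference TSS. Dark points, 27 in all, cover the reference TSS. The labelled points are 7 of the highest 8 scores, and each lies upstream of the start.

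Most members had a single gained peak. It was 1 peak in 48 members, 2 in 8 and 3 in 1, and 11.25% of members had at least 2, beside 11.8% of all protein-coding genes. The member with 3 was *Rpl4*, for a protein that lines the exit tunnel, which also hosts 5 snoRNAs. Its promoter peak over the TSS had 115 tags, the lowest score of any promoter peak in the family. The other peaks, with 144.5 and 508 tags, were 1554 and 2252 bp from a TSS of *Rpl4* but 437 and 113 bp from one of *Snapc5*, a subunit gene of the small nuclear RNA activating complex. The strongest score of *Rpl4* is therefore that of a peak nearer to another gene. It was so too for *Rpl7* and *Rps18*, whose strongest peaks, with 643.5 and 471.5 tags, were nearest to *Rdh10* and *B3galt4*. In 5 further members all peaks were nearer to another gene. *Rpl18*, *Rpl3*, *Rpl35*, *Rpl7a* and *Rps25* had only peaks that lay nearer to a TSS of *Sphk2*, *Syngr1*, *Arpc5l*, *Med22* and *Trappc4*, in that order. When a peak was counted only for the gene with the nearest TSS, 52 members had one (65.0%), beside 46.9% of all protein-coding genes.

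On chromosome 17, the second peak of *Rps2*, with 364 tags, was 2875 bp from its TSS, just inside 3 kb. The same peak was 3348 bp from a TSS of *Rpl3l*, just outside, and it covered a TSS of *Ndufb10*. The only member counted by a peak beyond 1 kb alone was *Rpl35*, with 522.5 tags at 2333 bp.

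A gained peak within 3 kb was not listed for 23 members, 16 of the large and 7 of the small subunit. The large-subunit genes were *Rpl3l*, *Rpl6*, *Rpl8*, *Rpl9*, *Rpl10*, *Rpl10l*, *Rpl13*, *Rpl14*, *Rpl17*, *Rpl23a*, *Rpl24*, *Rpl27a*, *Rpl29*, *Rpl35a*, *Rpl37a* and *Rpl39l*. The small-subunit genes included *Rps4x*, *Rps14*, *Rps15a*, *Rps24*, *Rps27* and *Rps28*. They include proteins of central function, such as *Rpl8* near the peptidyl transferase centre, *Rpl10*, which joins the large subunit late in its assembly, *Rpl23a* at the mouth of the exit tunnel and *Rps14* in the platform of the small subunit. *Rps24* and *Rpl35a* are genes whose human counterparts are mutated in Diamond-Blackfan anaemia. *Rps19*, the gene most often mutated in that disease, had peaks of 690 and 142.5 tags, and *Rpl5* and *Rpl11*, which restrain MDM2 together with 5S rRNA, had strongest peaks of 322 and 450.5 tags. In these examples, picked with their values known, genes of like function thus stood on both sides.

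Of the 23 genes, 11 had a gained peak between 3 and 10 kb of a TSS, and 12 had none within 10 kb. At 10 kb the count rose to 68 of 80 (85.0%), beside 59.6% of all protein-coding genes. The nearest was that of *Rpl23a*, with 574.5 tags at 3009 bp, just outside the limit and 30 bp from a TSS of *Tlcd1*. *Rpl3l* followed at 3348 bp, *Rpl14* at 3580 bp with 383 tags and *Rpl24* at 3617 bp with 768.5 tags. Several of these outlying peaks were strong, with 955 tags at 5282 bp from *Rpl35a*, 745.5 tags at 6611 bp from *Rps28* and 1010.5 tags at 7231 bp from *Rpl29*. These 3 were nearest to *Lmln*, *Kank3* and *Acy1*. Weaker ones lay 6978 bp from *Rps27* (226.5 tags), 9143 bp from *Rpl27a* (166 tags), 9484 bp from *Rps24* (163 tags) and 9835 bp from *Rpl10* (239.5 tags). In 8 of the 11 genes the nearest peak was nearer to another protein-coding gene. In *Rpl14*, *Rpl27a* and *Rps24* it was not.

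The 12 members with none within 10 kb included *Rpl6*, *Rpl8*, *Rpl9*, *Rpl10l*, *Rpl13*, *Rpl17*, *Rpl37a*, *Rpl39l*, *Rps4x*, *Rps14* and *Rps15a*. *Rpl9* just missed, with a peak of 89.5 tags at 10206 bp. The distances were 11976 bp for *Rpl6*, 12206 bp for *Rpl17*, 13392 bp for *Rps15a*, 21174 bp for *Rpl8*, 29525 bp for *Rps4x* and 34154 bp for *Rpl13*. They were 67222 bp for *Rpl37a* and 72652 bp for *Rps14*.

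**Figure D4:**
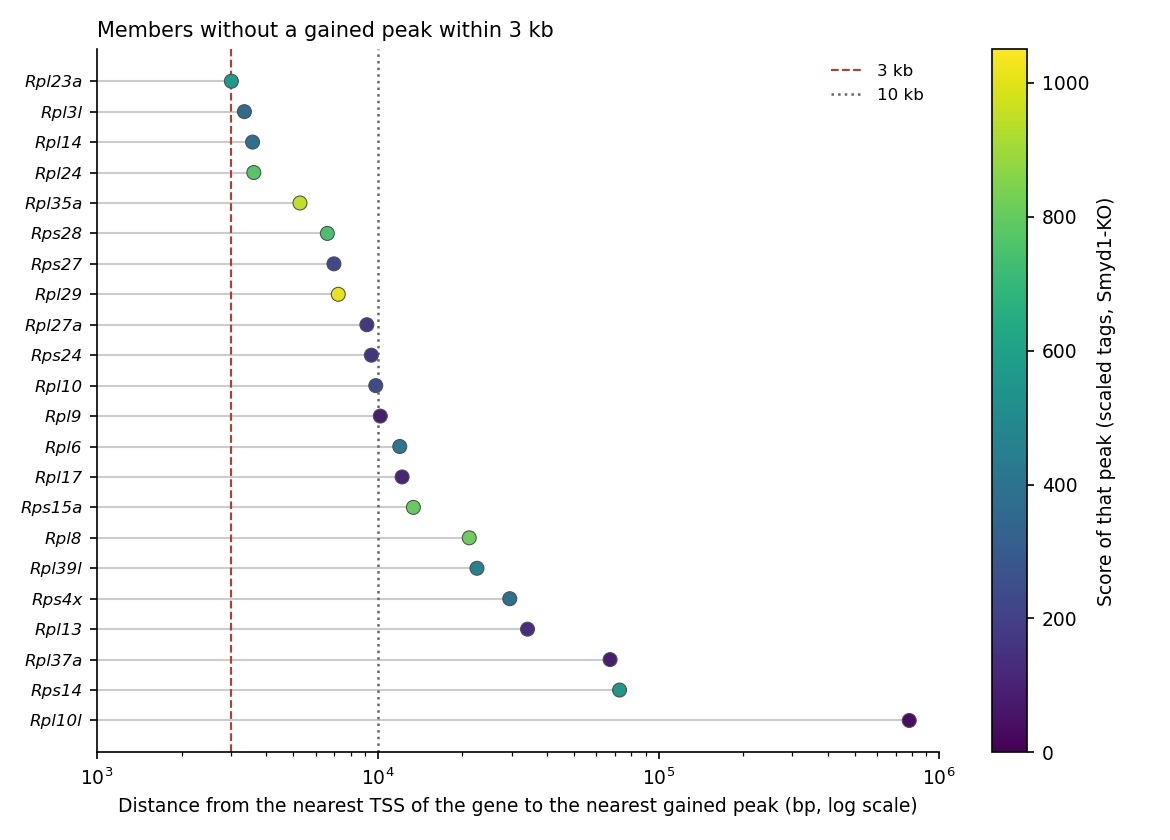
Distance in bp, on a log scale, from the nearest TSS of 22 of the 23 ribosomal protein genes without a gained peak within 3 kb to the nearest gained peak. The colour is the score of that peak in scaled *Smyd1-KO* tags, and lines mark 3 and 10 kb. The points run from 3009 bp for *Rpl23a* to 782102 bp for *Rpl10l*, and 11 lie below 10 kb.

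Of 4 listed paralogs of other members 1 had a gained peak (25%, interval 0.631 to 80.6%), beside 51.2% of all protein-coding genes, a share that its interval holds. *Rpl3l*, the paralog of *Rpl3* in striated muscle, had none within 3 kb. *Rpl10l* and *Rpl39l*, paralogs used in the testis, had their nearest gained peaks 782102 and 22560 bp away. *Rps27l*, a paralog of *Rps27* that responds to p53, had one of 675.5 tags 11 bp from a TSS, although *Rps27* itself had none within 3 kb. *Rps4l* was not found among the protein-coding genes. Without these 4 paralogs the count was 56 of 76 (73.7%).

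The rule by symbol leaves out some structural genes. *Rps3a1* had a gained peak of 490 tags over a TSS and *Rpl36al* one of 743.5 tags over a TSS. *Fau*, which encodes a ribosomal protein fused to a ubiquitin-like protein, had a peak of 504 tags at 2943 bp, just inside 3 kb. *Rps27a*, a ubiquitin fusion within the rule, had 2 peaks, each over a TSS, with 268.5 and 297.5 tags.

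Members with and without a gained peak had close medians of base composition. The median CpG ratio was 0.886 in the 57 with a peak and 0.862 in the 23 without. Across all protein-coding genes it was 0.787 with and 0.267 without a peak. The median GC content was 60.2% with and 57.4% without a peak in the family, and 63.2% and 50.8% in all protein-coding genes. The median gene length was 3368 bp with and 3221 bp without a peak, beside 17425 bp over all protein-coding genes, and the median number of annotated TSSs was 6 in both groups. These are descriptions of groups defined by the peaks and were not tested.

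The pyrimidine start of TOP mRNAs was looked for next. A run of at least 5 C or T, counted from a C at most 5 bases from the reference TSS, was present in 23 of 80 members (28.75%) and in 18.2% of all protein-coding genes. The shares moved with the definition. A run that starts at most 2 bases from the TSS was present in 13 members (16.25%) and in 8.70% of all protein-coding genes, and a run of at least 8 bases in 13 members and in 4.44%. With the starts of a RefSeq promoter table it was 28 of the 60 members held there (46.7%), beside 21.8% of the protein-coding genes in that table. Runs were 5 to 18 bases long, with a median of 8. A gained peak was near 19 of the 23 members with a run (82.6%, 61.2 to 95.05%) and near 38 of the 57 others (66.7%, 52.9 to 78.6%). These intervals overlap, and both hold the 76.9% of CpG-rich protein-coding genes. Over all protein-coding genes the share was 51.2%. The median strongest score was 508 tags with and 440 tags without a run. The call depends on which base the annotation gives as the start, so that a member without a run here may still start in one. Long runs stood on both sides of the peak call. They are shown for *Rpl4*, which has a gained peak over a TSS, and for *Rps24*, *Rpl37a* and *Rps27*, which have none within 3 kb. Each sequence covers 100 bases before and 20 bases from the reference TSS on mm10, 5′ to 3′ on the strand of the gene, and the capitals mark the run. The windows are chr9:64173275-64173394, plus strand for *Rpl4*, chr14:24490618-24490737, plus strand for *Rps24*, chr1:72711190-72711309, plus strand for *Rpl37a* and chr3:90213632-90213751, minus strand for *Rps27*.
Rpl4: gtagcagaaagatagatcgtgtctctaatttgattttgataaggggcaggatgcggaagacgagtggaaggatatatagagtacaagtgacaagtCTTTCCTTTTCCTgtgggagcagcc
Rps24: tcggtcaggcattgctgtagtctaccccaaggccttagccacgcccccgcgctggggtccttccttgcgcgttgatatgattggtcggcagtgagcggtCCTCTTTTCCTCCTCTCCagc
Rpl37a: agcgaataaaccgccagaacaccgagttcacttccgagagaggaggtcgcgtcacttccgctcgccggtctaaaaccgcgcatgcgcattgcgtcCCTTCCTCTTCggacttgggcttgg
Rps27: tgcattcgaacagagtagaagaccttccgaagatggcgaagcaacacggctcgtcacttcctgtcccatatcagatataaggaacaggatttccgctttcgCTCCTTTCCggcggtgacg

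The run was 13 bases in *Rpl4*, 18 in *Rps24*, 11 in *Rpl37a* and 9 in *Rps27*. *Rpl37*, with the highest score, has a run of 11 bases at the end of its window above, and its close namesake *Rpl37a*, with a run of the same length, had no gained peak within 10 kb.

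Fixed strings of promoter motifs were searched on both strands from 250 bases before to 50 bases after the reference TSS. The ETS string CCGGAAG was in 25 of 80 members (31.25%) and in 11.2% of all protein-coding promoters. It was in 20 of 57 members with a gained peak (35.1%) and in 5 of 23 without (21.7%), with intervals of 22.9 to 48.9% and 7.46 to 43.7%. In the sequences above it stands before the start on the strand of the gene in *Rpl15* and *Rpl37*, and at 2 places in *Rps21*. *Rpl37* also holds its reverse complement just after the start. The SP1 string GGGCGG was in 41 members (51.25%) and in 45.4% of all promoters. The YY1 string GATGGCG was in 7 members (8.75%) and 4.30% of all promoters, the NFY string CCAAT in 25 (31.25%) and 38.6%, the E-box CACGTG in 9 (11.25%) and 7.72%, and the TATA box string TATAAA in 9 (11.25%) and 12.6%. Each string was counted on its own, also where matches of different strings overlapped. For each of the 6 strings the intervals of members with and without a gained peak overlapped. A match describes letters and not a bound site.

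Several members host snoRNAs. Of 29 members with an annotated snoRNA within the gene on the same strand, 23 had a gained peak (79.3%, 60.3 to 92.0%). Of the 51 without a snoRNA 34 had one (66.7%, 52.1 to 79.2%). The share was 51.2% over all protein-coding genes and 76.9% over CpG-rich ones, and both intervals hold the second value. The median strongest scores were 442.5 and 461 tags. *Rpl4*, with 5 snoRNAs, and *Rpl13a*, with 4, both had a peak. By reference TSSs alone, 8 members, snoRNA hosts among them, had a protein-coding neighbour that starts at most 1 kb upstream in the other direction. Of the 8, 5 had a gained peak, beside 52 of the 72 others. The 3 without were *Rpl9*, *Rps28* and *Rpl35a*, whose partners *Lias*, *Ndufa7* and *Iqcg* start 53, 10 and 263 bp away.

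Ribosomal protein genes have many processed copies in the genome, and reads from repeated sequence may be lost or misplaced. In a window as wide as a peak around the reference TSS, over 10% of the 36-base words occurred more than once in the genome for 9 of 80 members, and for 12.2% of all protein-coding genes. A gained peak lay near 5 of these 9 members and near 52 of the other 71. Among genes with a gained peak, over 10% repeated words were found for 8.77% of members and 3.40% of all protein-coding genes. Among genes without one the shares were 17.4% and 21.5%. Among the 23 without a peak, 4 had over 10% repeated words at the start, among them *Rpl17* with 22.8%, *Rpl6* with 17.5% and *Rpl29* with 14.0%. The other 19 had at most 10%, so that for most of them the start is not repeated at this word length. Of the 66 peaks, 7 had over 10% repeated words. With those peaks left out, 51 members had a peak (63.75%), beside 49.9% of all protein-coding genes, and the 6 that lost theirs included *Rpl5*, *Rpl34*, *Rplp1*, *Rps6* and *Rps7*. How the authors treated such reads is not stated, and the part of repeated sequence in the result was not tested. The processed pseudogenes named for a member seldom had a gained peak. Of 287, 12 had a gained peak at most 3 kb away (4.18%, 2.18 to 7.19%). None had one over its start, with an interval up to 1.28%. Over all 13132 processed pseudogenes the share within 3 kb was 3.76%.

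Genes that act with the ribosomal proteins were counted from lists of known function, beside 51.2% of all protein-coding genes and 76.9% of those with a CpG ratio of at least 0.6. The interval of each list in this paragraph holds the second share. Of 20 genes of ribosome assembly and rRNA processing, 17 had a gained peak within 3 kb (85.0%, 62.1 to 96.8%), with a median strongest score of 483 tags. The highest was *Rrp9*, a component of the U3 snoRNP, with 1356.5 tags, and *Nop10*, *Rpf2* and *Grwd1* had none. *Nop10* belongs to the pseudouridylation complex, *Rpf2* helps to bring 5S rRNA into the large subunit and *Grwd1* is an assembly chaperone. Of 8 genes of RNA polymerase I and its factors, which make the large rRNA precursor, 5 had one (62.5%, 24.5 to 91.5%), with 918 tags at *Polr1d* as the highest and none at *Polr1e*, *Rrn3* and *Taf1b*. All 12 translation factors had one (73.5 to 100.0%), many of them TOP mRNAs themselves, with a median of 583.25 tags and the highest at *Tpt1*, 1078 tags. Of 5 regulators of TOP mRNA translation, 4 had one (80.0%, 28.4 to 99.5%). *Mtor*, the kinase at the head of that pathway, was highest with 878 tags, and *Larp1*, which binds the TOP tract, had none within 3 kb. The paralogous genes *Eif4e3* and *Eef1a2* had peaks of 218.5 and 128.5 tags, the first above *Rpl3* and *Rpl39* only and the second below all 57 members with a peak. The 78 genes of the mitochondrial ribosome, a separate family, had a gained peak in 59 cases (75.6%, 64.6 to 84.7%) with a median strongest score of 405 tags, and its interval overlaps that of the cytosolic family.

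**Figure D5:**
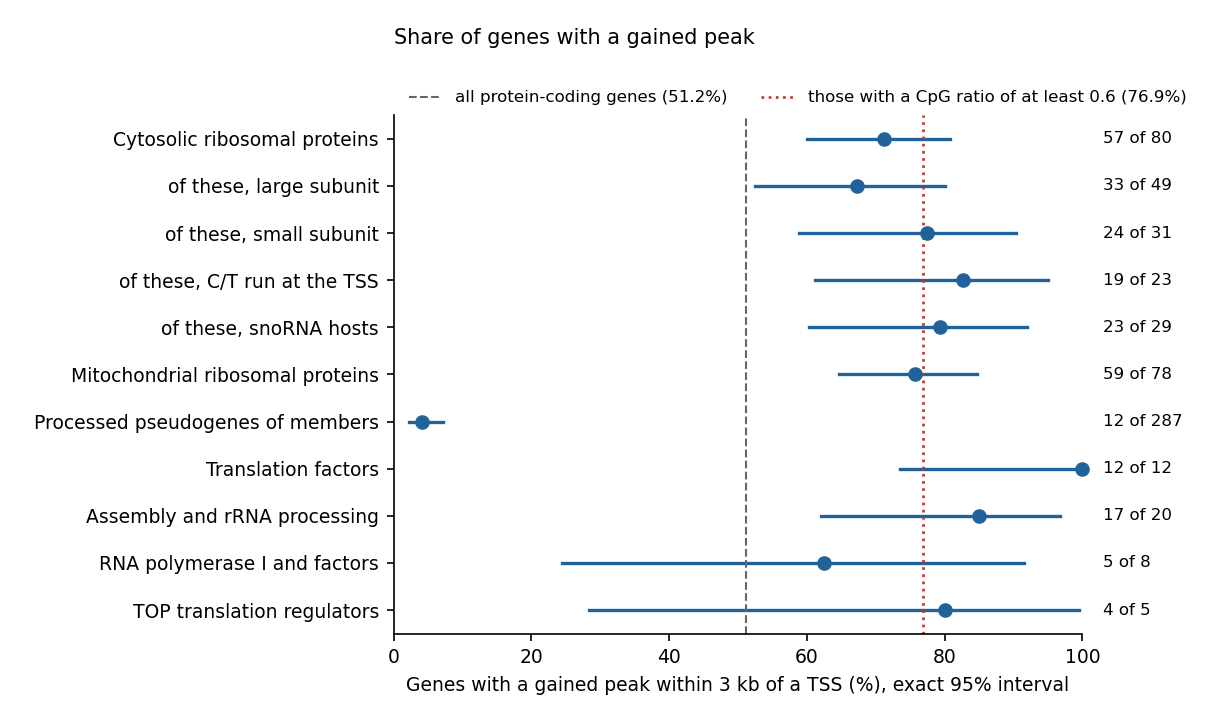
Share of genes, in percent, with a gained peak within 3 kb of a TSS, as points with exact 95% intervals, and the counts at the right. The rows are the 80 ribosomal protein genes and groups within them, mitochondrial ribosomal protein genes, processed pseudogenes of members and lists of related genes. The dashed line is all protein-coding genes (51.2%) and the dotted line those with a CpG ratio of at least 0.6 (76.9%). The family, at 71.25%, lies between the lines, and its pseudogenes are at 4.18%.

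Marker genes of cell types in the heart were counted in the same way, beside the 51.2% of all protein-coding genes. Of 6 cardiomyocyte markers, 5 had a gained peak within 3 kb, from 199 tags at *Ttn* to 619.5 tags at *Actc1*, and *Nkx2-5* had none. Of 4 endothelial markers, *Tek* had one, with 79.5 tags, and *Pecam1*, *Cdh5* and *Kdr* had none. Of the erythroid markers, *Klf1* had one, with 677.5 tags, and *Hba-a1* and *Hbb-y* had none. The part of cell type makeup in the result for ribosomal protein genes was not tested.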

How the data were processed

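ATAC-seq peaks were analysed for hearts of both genotypes. The authors aligned reads to mm10 with BWA-MEM, combined the libraries of a genotype, called and compared peaks with HOMER v4.10.3 (2-fold cutoff) and annotated them with ChIPseeker v1.20.0. Handling of duplicates, repeated reads and the Tn5 offset is not stated. The deposited value of a peak is a signal, a tag value of the combined libraries of the higher genotype, which is scaled or averaged in a way not stated, since many values are not whole.

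Peak edges were measured to all GENCODE M21 TSSs of a gene. The reference TSS is that of 1 principal transcript. Sequence came from GRCm38.p6 (RefSeq), the assembly of mm10. Python 3.11.15, NumPy 2.4.6, SciPy 1.17.1 and pandas 2.3.3 were used, and the counting steps were tested on simulated data. Values are descriptions with no test, since libraries were pooled. The members and lists were chosen with earlier results of these data known. Named were all members without a peak, the 10 highest and 5 lowest scores, members with 3 peaks, paralogs, genes outside the rule, related genes without a peak or with the highest score of their list. Other members were named for their role, position or sequence after their values were seen. Distance, TSS set, score, repeated sequence and family definition were varied. Counts cover all members and list genes, but some genes, values and sequences are not reported here.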

Additional observations from a re-analysis of the deposited data

How the results depend on the processing

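The lists hold combined libraries, so no replicate could be left out, and the spread between replicates limits every value in an unknown way. No paired analysis was possible because the lists pool the libraries of each genotype. Over the 12 other settings tried, some of which also change the number of genes in the family, the number of members with a gained peak ranged from 51 to 68, and their median strongest score from 443.25 to 475.25 tags. The restriction to CpG-rich promoters was chosen after seeing the data. The number of pairs of a member and a peak rose from 67 within 3 kb to 114 within 10 kb. The number of members with a C/T run fell from 23 to 13 when the run had to start within 2 bases of the reference TSS, and likewise to 13 when it had to hold at least 8 bases.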
